A study of Mus musculus with 12 samples.

Results

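The gene of the glucocorticoid receptor and 9 genes known as its targets were followed through 12 whole lungs of miR-30a -/- mice. The set held 10 genes, chosen by gene symbol from the 55487 genes of the count table: *Nr3c1*, *Fkbp5*, *Tsc22d3*, *Per1*, *Zbtb16*, *Klf9*, *Sgk1*, *Errfi1*, *Ddit4* and *Pdk4*. All 10 were found, and all 10 passed the filter on low counts. The rule uses the symbol and no measured value.

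All mice were C57BL/6J with a CRISPR/Cas9 deletion of miR-30a, and no wild type lung was analysed here, so the controls carried the deletion too. The 4 groups of 3 lungs were room air males (animals 1, 4 and 5), room air females (2, 5 and 6), hyperoxia males (1, 2 and 3) and hyperoxia females (2, 4 and 5). Hyperoxia meant 95% FiO2 from postnatal day (PND) 1 to PND 5, followed by room air. Lungs of all 4 groups were taken on PND 21, so the RNA describes the lung after its time in room air and not the days in oxygen. Pups of several litters had been mixed and redistributed, and each library is labelled as the lung of a separately numbered animal.

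Glucocorticoids enter the cell and bind the glucocorticoid receptor, which is held ready in the cytoplasm by HSP90 and its partners. The hormone-bound receptor moves to the nucleus and binds a palindromic DNA sequence, the glucocorticoid response element, near its target genes. In the lung this pathway drives maturation before birth, and steroids are given to infants at risk of bronchopulmonary dysplasia. Secretion follows a daily rhythm and rises with stress, so target transcripts vary with the hour and the handling of an animal. The hour at which each lung was taken was not used here.

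Levels are given in CPM, the read count of a gene scaled to one common library size after upper-quartile normalization. In whole lung, fewer cells of a type and less RNA per cell cannot be told apart. Each library held 8763033 to 16741694 counts. Odorant and vomeronasal receptor genes, most of which lung cells are not known to use, took 0.410% to 0.945% of the counts. This receptor share was taken here to stand for reads that did not come from lung transcripts. The paper, however, lists the odorant receptor gene *Olfr78* among neuroendocrine cell genes higher in hyperoxia-exposed miR-30a -/- females. The part of such genes in the share was not tested. Their median density, 11.3 to 19.04 reads per kb of exon, gave the background expected in any gene. By that measure background made up 3.18% of the summed counts of *Errfi1* but 30.04% of those of *Fkbp5*, 26.2% of those of *Pdk4* and 14.7% of those of *Ddit4*. The other 6 genes lay between 3.57% and 7.11%. A second scale was therefore set beside the first: background was taken off each gene by its exon length, and libraries were matched on 3656 genes with a mean of at least 50 CPM. It is called the lung-gene scale below, and it was added after the data had been seen.

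The lungs carried the markers of their tissue. *Sftpc*, the surfactant gene of alveolar type 2 cells, stood between 1970.3 and 5233 CPM, and *Pecam1* of endothelium between 247 and 526 CPM. Room air male 1 stood apart, with a summed level of 4 skeletal muscle markers of 1029 CPM against 23.999 to 39.2 CPM in the other 11 lungs. The 4 thymocyte markers summed to 25.6 to 47.9 CPM, with 19.6% to 70.9% of their counts at the background level, and the 4 fat markers to 22.7 to 37.0 CPM, and none of these was at 0. *Mir30a* itself had 0 counts in all 12 lungs, as did its relatives *Mir30d* and *Mir30e*, so the count of this short gene does not test the deletion.

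DNA before the start sites was searched for short motifs in RefSeq windows of GRCm38.p6, the mm10 sequence. The windows reach from 250 bases before to 50 bases after a start. There were 17 windows for 8 of the 10 genes, and *Nr3c1* and *Zbtb16* had no window. Both strands were read. The full glucocorticoid response element, AGAACA and TGTTCT with any 3 bases between them, was in 3 of 32851 windows of all genes (0.00913%), and 1 of these 3 belonged to *Sgk1*. The element starts 189 bases before the start site on chromosome 10, in the fifth of the 6 windows of this gene. The E-box CACGTG, bound by CLOCK and by MYC family proteins, was in 7.15% of all windows and in 1 window each of *Fkbp5*, *Per1* and *Sgk1*. The cyclic AMP response element TGACGTCA was in 1.79% of all windows and in 1 of *Errfi1*. The site GTAAACA of FOXO factors was in 3.65% of all windows and in 1 of *Klf9*. The shorter letters TGTTCT, part of the full element, were in 18.97% of all windows and in 4 of the 17 windows of the set, which belong to *Sgk1* and *Tsc22d3*. TGACG, part of the cyclic AMP element, was in 20.8% of all windows and in 6 of the 17, which belong to *Errfi1*, *Sgk1*, *Per1*, *Klf9* and *Tsc22d3*. The 250 bases before 4 start sites are shown as examples. Capitals mark the full element and E-box in *Sgk1*, the E-box in *Fkbp5* and *Per1*, and the cyclic AMP element in *Errfi1*. The *Klf9* window is not shown, and matches to the shorter letters TGTTCT and TGACG are not marked on their own.
Sgk1, chr10:21993640-21993889, + strand: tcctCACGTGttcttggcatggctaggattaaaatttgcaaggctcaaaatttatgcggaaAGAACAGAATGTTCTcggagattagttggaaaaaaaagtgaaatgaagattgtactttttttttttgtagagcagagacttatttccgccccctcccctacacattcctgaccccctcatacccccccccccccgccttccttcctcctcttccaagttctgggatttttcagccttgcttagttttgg
Fkbp5, chr17:28486150-28486399, - strand: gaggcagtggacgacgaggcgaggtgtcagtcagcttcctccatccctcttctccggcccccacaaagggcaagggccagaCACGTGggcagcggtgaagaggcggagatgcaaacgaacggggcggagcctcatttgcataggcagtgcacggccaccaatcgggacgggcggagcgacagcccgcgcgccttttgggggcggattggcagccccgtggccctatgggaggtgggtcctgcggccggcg
Per1, chr11:69098699-69098948, + strand: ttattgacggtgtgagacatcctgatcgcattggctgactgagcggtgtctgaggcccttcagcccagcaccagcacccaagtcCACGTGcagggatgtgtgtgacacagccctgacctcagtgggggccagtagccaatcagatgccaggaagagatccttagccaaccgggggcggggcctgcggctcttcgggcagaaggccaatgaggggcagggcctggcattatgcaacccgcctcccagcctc
Errfi1, chr4:150854820-150855069, + strand: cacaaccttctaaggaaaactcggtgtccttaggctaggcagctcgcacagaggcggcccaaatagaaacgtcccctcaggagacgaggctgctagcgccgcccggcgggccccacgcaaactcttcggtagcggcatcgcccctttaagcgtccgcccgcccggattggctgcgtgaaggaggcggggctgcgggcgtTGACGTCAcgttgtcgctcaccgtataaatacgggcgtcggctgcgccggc
A match describes these letters in this window and is not a site shown to be bound.

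Per kb of exon the 10 genes differed in median level. *Errfi1* (31.8 CPM per kb), *Klf9* (31.1), *Tsc22d3* (28.3) and *Per1* (28.3) led, followed by *Nr3c1* (20.1), *Sgk1* (19.9) and *Zbtb16* (15.1). *Ddit4* (7.49), *Pdk4* (4.14) and *Fkbp5* (3.81) came last. Each neighbour in this order overlapped the next in its range over the 12 lungs. With background taken off and on the lung-gene scale the lowest 3 stayed the same, *Ddit4* at 7.36, *Pdk4* at 3.57 and *Fkbp5* at 3.17 per kb.

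The receptor gene *Nr3c1* (ENSMUSG00000024431, chromosome 18 of mm10) encodes the glucocorticoid receptor. Its level was 126, 176 and 139 CPM in room air males 1, 4 and 5, and 201, 101 and 155 CPM in hyperoxia males 1, 2 and 3. In room air females 2, 5 and 6 it was 223, 239.8 and 154 CPM, and in hyperoxia females 2, 4 and 5 it was 179, 140.04 and 126 CPM. The exposures overlapped in both sexes. Over the 12 lungs *Nr3c1* spanned 2.38-fold, and it ran against the receptor share, a measure that shares each library's scaling and was set beside the genes after the data had been seen. The Pearson correlation of its log2 CPM with the log2 share was -0.96 and Spearman's rho -0.97 (permutation test over 12 lungs, p = 1e-05 for each, the smallest that 100000 permutations can give, adjusted p = 0.000185 and 0.000261 over 41163 genes). Without room air female 5 and hyperoxia male 1, the lungs farthest from the median share, r was -0.98. Of all genes 99.3% had a higher r than *Nr3c1* over the 12 lungs. After background was taken off it was -0.90. On the lung-gene scale *Nr3c1* spanned 1.28-fold, from 152 in hyperoxia male 2 to 195 in room air female 2, the narrowest range of the 10 genes, and r was -0.73 (permutation p = 0.00685, adjusted p = 0.033) and rho -0.66 (permutation p = 0.0242, adjusted p = 0.0762). *Sftpc* and *Pecam1* ran with it, highest in room air female 5 and lowest in hyperoxia male 2 on the CPM scale, and spanned 3224 to 4247 and 402 to 462 on the lung-gene scale.

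Of the other 9 genes, *Klf9* (r = -0.78, rho = -0.79, permutation p = 0.00289, adjusted p = 0.0106), *Errfi1* (r = -0.67, rho = -0.51, permutation p = 0.0182, adjusted p = 0.0431) and *Per1* (r = -0.65, rho = -0.46, permutation p = 0.0214, adjusted p = 0.0487) also passed on Pearson's r. Of all genes 85.1%, 80.9% and 80.5% had a higher r than these 3, so many genes ran against the share at least as strongly. On rho *Klf9* passed (adjusted permutation p = 0.015), *Errfi1* and *Per1* did not (0.165 and 0.216). Without the 2 lungs named above r was -0.57, -0.49 and -0.50 over 10 lungs, and none of these 3 passed, with adjusted permutation p between 0.205 and 0.295. *Sgk1* (r = -0.65), *Tsc22d3* (-0.61), *Ddit4* (-0.46) and *Zbtb16* (-0.16) did not pass, nor did *Fkbp5* (0.38) and *Pdk4* (0.48), which ran the other way. Scaled to lung genes, *Fkbp5* (r = 0.70, adjusted permutation p = 0.0439) and *Pdk4* (r = 0.73, adjusted permutation p = 0.0346), the genes with the most background in their counts, passed on r with a positive sign, where 23.5% and 20.8% of all genes had r as high. Their rho was 0.64 and 0.78 (adjusted permutation p = 0.0813 and 0.0254), and the fit without those 2 lungs was not run on that scale. Room air female 5, the lung with the lowest share, held the highest CPM of 7 of the 10 genes. With lungs matched on lung genes, it held the highest of 0, and hyperoxia female 5 led in 4.

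**Figure D1:**
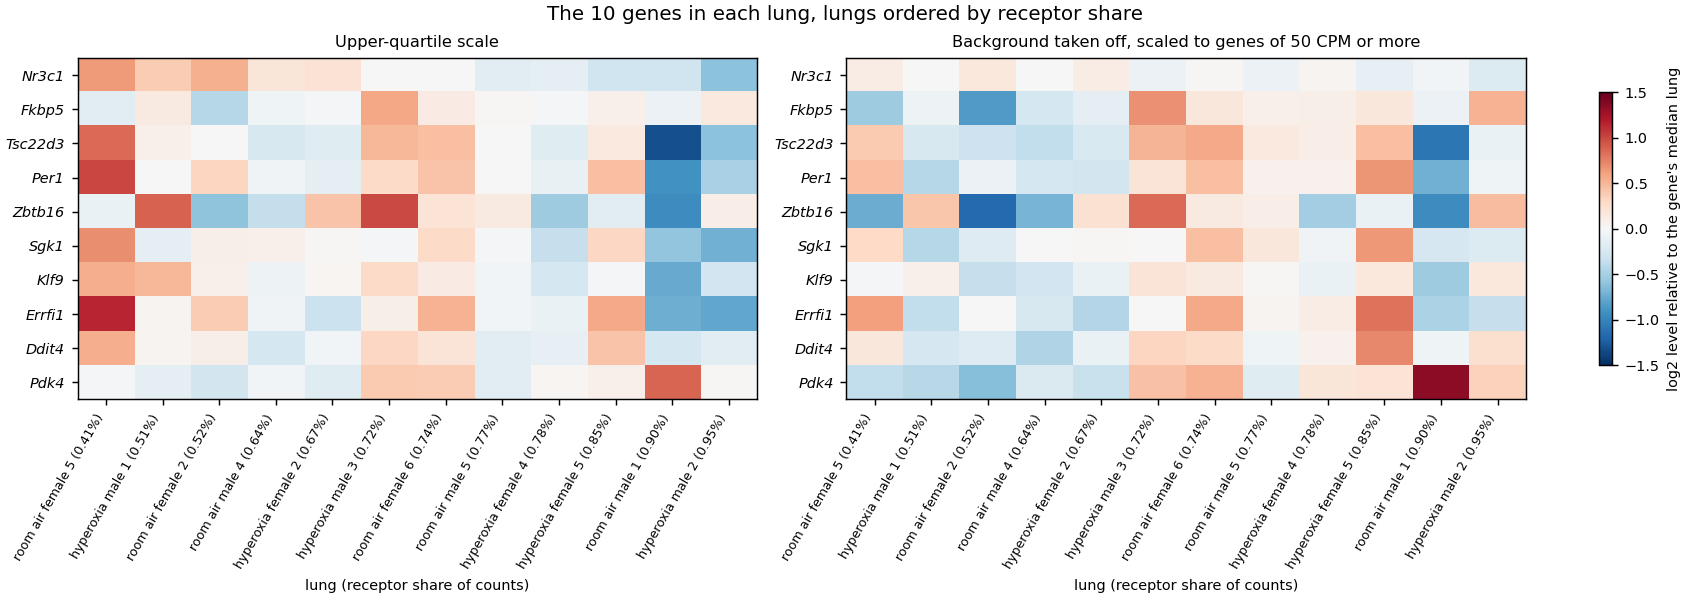
Heat maps of the 10 genes (rows) in each of 12 lungs (columns, ordered by the receptor share given beside the name); colour is the log2 level relative to the gene's median lung, on the CPM scale at left and the lung-gene scale at right. Nr3c1 fades from red to blue with rising share at left and is nearly even at right, where it spans 1.28-fold, while Zbtb16 still spans 4.04-fold.

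*Zbtb16* (ENSMUSG00000066687, chr9:48654297-48836222, - strand) had the largest difference between hyperoxia and room air males among the 10 genes. It encodes PLZF, a zinc finger repressor and a target of the receptor in many tissues. Room air males 1, 4 and 5 had 41.7, 62.2 and 87.6 CPM. Hyperoxia males 1, 2 and 3 had 148, 85.4 and 159 CPM, so the lowest hyperoxia lung lay just under the highest room air lung. The log2 fold change in males was 1.03 (SE 0.28, a 2.05-fold difference, unadjusted p = 0.000832), but the adjusted p of edgeR's quasi-likelihood test was 1.00. On the lung-gene scale the 3 hyperoxia males (129, 132 and 174) all lay above the 3 room air males (49.8, 59.4 and 103), as did those of 3.73% of genes on that scale, with a log2 fold change of 1.03 (SE 0.39, adjusted p = 1.00). Leaving out each lung in turn kept this value between 0.81 and 1.33 on the CPM scale. Room air females had 52.3, 74.6 and 92.4 CPM, hyperoxia females 107, 55.1 and 71.0 CPM, so the groups overlapped, and the log2 fold change was 0.09 (SE 0.27). The female value was 0.40 (SE 0.39) on the lung-gene scale and 0.51 in females alone with the animal number as a block. Only numbers 2 and 5 stand in both female groups, so the block value rests on those lungs, which are not known to be paired. The difference of the sexes' responses, female minus male, was -0.94 (SE 0.39, unadjusted p = 0.0217, adjusted p = 0.578) and -0.63 (SE 0.55, unadjusted p = 0.280, adjusted p = 0.911) on the lung-gene scale.

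*Fkbp5* (ENSMUSG00000024222, chr17:28399094-28517527, - strand) encodes FKBP51, a co-chaperone that lowers the affinity of the receptor for hormone and so closes a feedback loop, and it is a common readout of receptor activity. Its level was 33.8, 34.5 and 36.6 CPM in room air males and 39.6, 39.8 and 53.8 CPM in hyperoxia males. The male groups did not overlap, which held for 2.73% of all genes tested with hyperoxia higher and for 3.89% with hyperoxia lower. The log2 fold change was 0.35 (SE 0.16, a 1.27-fold difference, unadjusted p = 0.0440, adjusted p = 1.00), and without hyperoxia male 3 it was 0.19. Under RUVr with 3 factors the adjusted p was 0.0467 in males and 0.00947 with the sexes averaged, under the fold of 1.5. Room air females had 26.9, 32.3 and 39.2 CPM and hyperoxia females 35.3, 35.5 and 38.0 CPM, with a log2 fold change of 0.15 (SE 0.16). With a lung left out this female value lay between 0.024 and 0.29. Scaled to lung genes, the values were 0.49 (SE 0.23) in males and 0.40 (SE 0.23) in females, and the male groups overlapped, since room air male 5 (31.6) exceeded hyperoxia male 1 (28.5).

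*Klf9* (ENSMUSG00000033863, chr19:23141226-23168134, + strand), a Krüppel-like transcription factor induced quickly by the receptor, had fitted values of opposite sign in the sexes on the CPM scale. It stood at 88.9, 142 and 146 CPM in room air males and at 211, 122 and 183 CPM in hyperoxia males, a log2 fold change of 0.45 (SE 0.25). In females it was 158, 219 and 163 CPM in room air and 153, 125 and 146 CPM after hyperoxia, a log2 fold change of -0.35 (SE 0.25). The male value was 0.26 without room air male 1 and 0.29 without hyperoxia male 1, and the female value -0.19 without room air female 5. The female groups did not overlap, as was so for 6.42% of all genes with hyperoxia lower and for 10.8% with hyperoxia higher. The female minus male difference was -0.80 (SE 0.35, unadjusted p = 0.0288, adjusted p = 0.578). With unwanted variation estimated by RUVr, as the study's own processing did, *Klf9* was called in this interaction at 2 factors (adjusted p = 0.0107) and at 3 factors (adjusted p = 0.000321), where 2167 and 2398 of all genes were called. At 3 factors its adjusted p was also 0.0116 in females and 0.0217 in males, under the fold of 1.5. Over all alternatives its adjusted p in the interaction lay between 0.000321 and 1.00. With lungs matched on lung genes, the picture was different: hyperoxia males (186, 197 and 202) lay above room air males (122, 144 and 179), as did those of 3.73% of genes on that scale, with a log2 fold change of 0.39 (SE 0.13, unadjusted p = 0.00970, adjusted p = 0.891), females were at 0.05 (SE 0.13), and the interaction was -0.34 (SE 0.19, adjusted p = 0.909).

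*Tsc22d3* (ENSMUSG00000031431, chrX:140539528-140600659, - strand) encodes GILZ, a leucine zipper protein that carries part of the anti-inflammatory action of glucocorticoids. Room air males had 49.5, 104 and 122 CPM and hyperoxia males 130.04, 80.4 and 173 CPM. In females the levels were 124, 222 and 168 CPM in room air and 108, 109 and 137 CPM after hyperoxia. Exposures overlapped in both sexes. The log2 fold changes were 0.48 (SE 0.29) in males and -0.54 (SE 0.29) in females, and their difference of -1.02 (SE 0.41, unadjusted p = 0.0189, adjusted p = 0.578) was the largest of the 10 genes on the CPM scale. It was -0.58 (SE 0.52, adjusted p = 0.911) on the lung-gene scale, smaller in size than that of *Zbtb16*, and there the female value was -0.13 (SE 0.36). On the CPM scale the male value was 0.19 without room air male 1 and 0.20 without hyperoxia male 3, and the female value -0.31 without room air female 5.

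*Per1* (ENSMUSG00000020893, chr11:69095217-69109960, + strand) is a repressor of the circadian clock and a direct receptor target, so it answers both the hour and the hormone. It ranged from 84.7 CPM in room air male 1 to 319 CPM in room air female 5, with 154 and 159.7 CPM in the other room air males and 199.97 and 214 CPM in the other room air females. Hyperoxia males had 159, 114 and 194 CPM and hyperoxia females 145, 147 and 217 CPM. The log2 fold changes were 0.23 (SE 0.27) in males and -0.53 (SE 0.27) in females. The male value was -0.00399 without room air male 1 and 0.044 without hyperoxia male 3, and the female value -0.29 without room air female 5. On the lung-gene scale they were 0.20 (SE 0.30) and -0.09 (SE 0.29).

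The signalling genes came next. *Errfi1* (ENSMUSG00000028967, chr4:150853919-150868892, + strand) encodes MIG6, a brake on the EGF receptor. Room air females had 149, 252 and 163 CPM and hyperoxia females 91.4, 106 and 169 CPM, and the log2 fold change of -0.62 (SE 0.27, unadjusted p = 0.0307, adjusted p = 0.377) was the lowest of the 10 genes in females. Room air female 5 and hyperoxia female 5 were the highest lungs of their groups, and the groups overlapped. Without room air female 5 the value was -0.35, and on the lung-gene scale it was -0.17 (SE 0.31). Males had 68.8, 110.1 and 111 CPM in room air and 117, 66.4 and 121 CPM after hyperoxia, a log2 fold change of 0.07 (SE 0.27).

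*Sgk1* (ENSMUSG00000019970, chr10:21882184-21999903, + strand), a kinase that holds sodium channels in the epithelial membrane, carried the full response element shown above. Its level was 64.8, 102 and 96.1 CPM in room air males, 88.3, 59.2 and 95.3 CPM in hyperoxia males, 103, 158 and 119 CPM in room air females and 98.6, 76.7 and 121 CPM in hyperoxia females. The log2 fold changes were -0.11 (SE 0.24) in males and -0.36 (SE 0.23) in females, and neither group of lungs stood clear of its control. The female value was 0.04 (SE 0.21) on the lung-gene scale, and on the CPM scale -0.21 without hyperoxia female 4 and -0.17 without room air female 5. *Sgk1* spanned 2.66-fold over the 12 lungs, in the middle of the 10 genes, between *Ddit4* at 1.75-fold and *Tsc22d3* at 4.48-fold. *Ddit4* (ENSMUSG00000020108, chr10:59949669-59951834, - strand), also called REDD1, an inhibitor of mTORC1, was low throughout, between 10.96 and 19.2 CPM, with log2 fold changes of 0.31 (SE 0.17) in males and -0.18 (SE 0.17) in females, the latter 0.17 on the lung-gene scale. With a lung left out the CPM values lay between 0.17 and 0.42 in males and between -0.37 and -0.034 in females.

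*Pdk4* (ENSMUSG00000019577, chr6:5483351-5496309, - strand), the kinase that turns glucose oxidation down in favour of fat, was lowest in number of reads with *Ddit4*. It stood at 26.6, 14.1 and 13.01 CPM in room air males, 13.3, 14.7 and 19.1 CPM in hyperoxia males, 11.99, 14.4 and 18.9 CPM in room air females and 12.9, 14.8 and 15.4 CPM in hyperoxia females. The highest lung was room air male 1, the lung with skeletal muscle, whose *Acta1* was 729 CPM against 4.77 to 7.48 CPM elsewhere. *Pdk4* is also a gene of muscle, and the part of that tissue in the value was not tested. The log2 fold change in males was -0.19 (SE 0.21) with this lung and 0.22 without it.

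**Figure D2:**
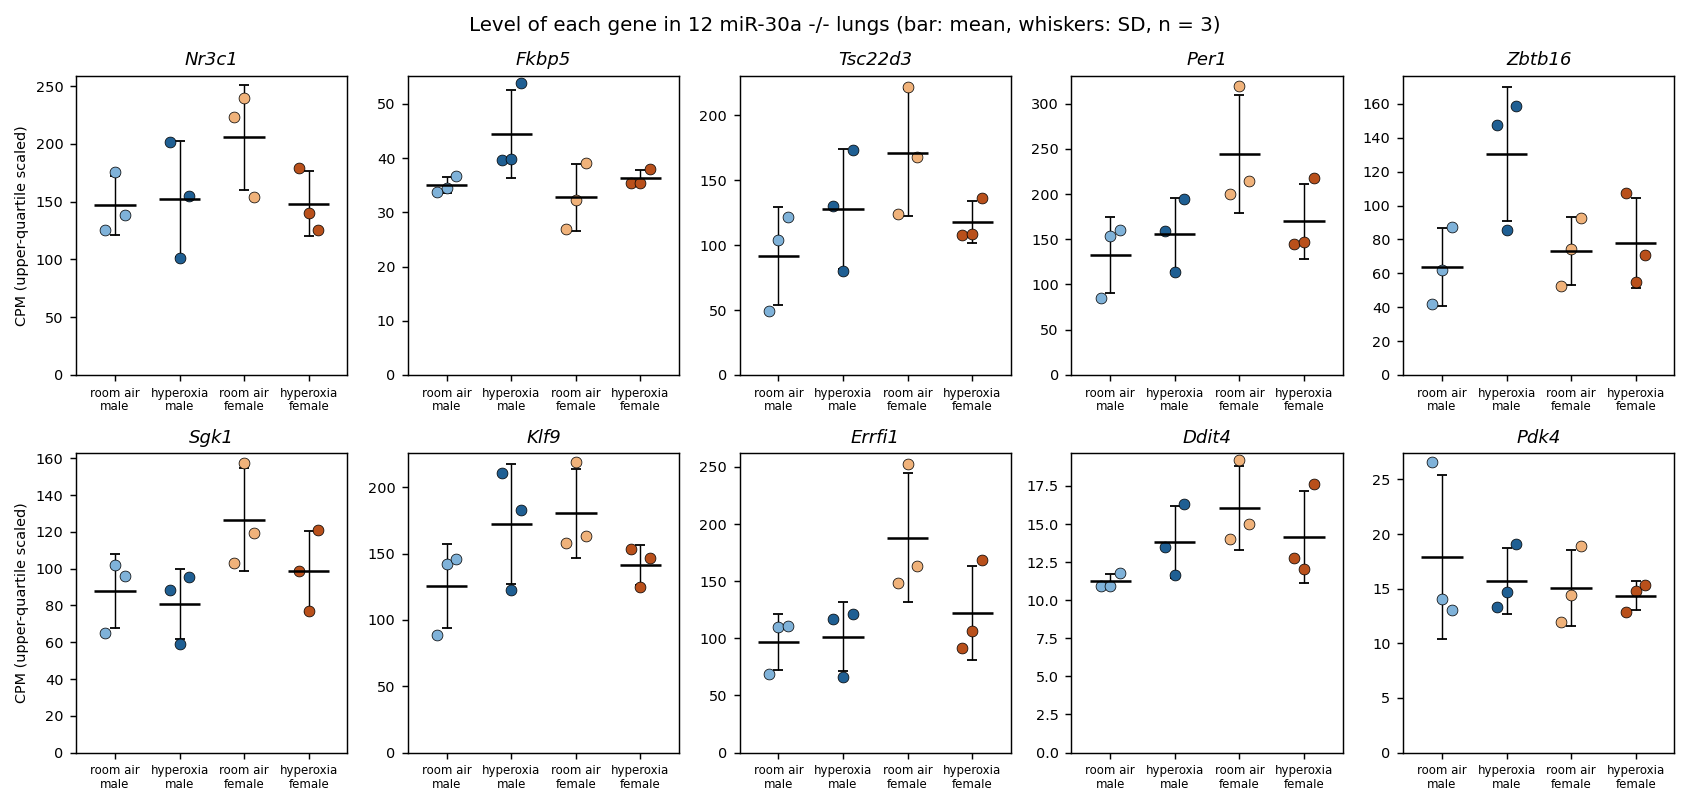
Level of each gene in CPM (vertical axis, from 0, one panel per gene) in the 4 groups; each point is a lung, the bar is the group mean and the whiskers are the SD (n = 3). The 3 hyperoxia males of Fkbp5 (39.6 to 53.8 CPM) lie above the 3 room air males (33.8 to 36.6 CPM), and room air male 1 is the high point of Pdk4 at 26.6 CPM.

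With the sexes averaged, the exposure comparison called 0 of the 10 genes at an adjusted p under 0.05 and a fold over 1.5. The background was 0.0415%, 19 of 45828 genes tested. DESeq2 called 0 of the 10 as well. *Zbtb16* (log2 fold change 0.56, SE 0.19, unadjusted p = 0.00721, adjusted p = 0.897) and *Fkbp5* (0.25, SE 0.12, unadjusted p = 0.0429, adjusted p = 0.927) had an unadjusted p under 0.05, as had 5.2% of all genes. The remaining values ran from -0.28 (SE 0.19, *Errfi1*) to 0.06 (SE 0.12, *Ddit4*), with *Errfi1* at -0.16 without hyperoxia male 2 and at -0.14 without room air female 5. The median of the 10 was -0.08, that of all genes 0.03 and that of the 3659 genes with a mean of at least 50 CPM -0.13. Scaled to lung genes, *Zbtb16* was at 0.72 (SE 0.27, adjusted p = 0.729), *Fkbp5* at 0.45 (SE 0.16, adjusted p = 0.650) and *Klf9* at 0.22 (SE 0.09, adjusted p = 0.731), while *Nr3c1* was at -0.06 (SE 0.05), *Errfi1* at -0.09 (SE 0.22) and *Ddit4* at 0.24 (SE 0.17). *Tsc22d3* turned from -0.03 (SE 0.20) to 0.16 (SE 0.26) and *Per1* from -0.15 (SE 0.19) to 0.05 (SE 0.21). In these lungs the 3 red cell markers summed to 4699 to 7344 CPM in room air and to 1170 to 4284 CPM after hyperoxia, and *Alas2*, the first enzyme of heme synthesis in red cells, fell in the same comparison (log2 fold change -1.11, SE 0.19, adjusted p = 0.0129, but 0.516 on the lung-gene scale). The median log2 fold change of the 3 red cell markers was -1.17, and -0.97 on the lung-gene scale. Their part in the values above was not tested.

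Within each sex no gene of the set was called either. In females the count was 0 of 10 (background 0.00218%, 1 gene of 45828), with an unadjusted p under 0.05 for *Errfi1* alone against 12.6% of all genes. In males it was 0 of 10 (background 0.0%, 0 genes), with *Zbtb16* and *Fkbp5* under 0.05 against 2.7% of all genes. DESeq2 called 0 of the 10 in both sexes. In females 8 of the 10 lay below 0, with a median of -0.36 against -0.35 for the 3659 genes of at least 50 CPM and 0.11 for all genes. The 4 heart muscle markers summed to 111 to 129 CPM in room air females and to 42.5 to 72.2 CPM after hyperoxia, with none at 0 and none called. The 4 thymocyte markers lay above 0 in females (median log2 fold change 0.44, and 0.93 on the lung-gene scale, 0 called). The 3 largest predicted genes took 7.12% to 19.7% of the counts in room air females and 18.4% to 26.7% in hyperoxia females, and the receptor share was 0.410% to 0.739% and 0.669% to 0.847%. The part of these in the female values was not tested. In males 8 of the 10 lay above 0, with a median of 0.27 against 0.07 for the genes of at least 50 CPM and -0.01 for all genes. Room air male 1, the lung with skeletal muscle markers, was the lowest lung for *Tsc22d3*, *Per1*, *Zbtb16* and *Klf9*, and without it 6 of the 10 lay above 0 in males. All 4 of those markers lay below 0 in males (median log2 fold change -2.44, 0 called), and their part was not tested. On the lung-gene scale, where genes of at least 50 CPM centre on 0 in both sexes, the median of the 10 was 0.05 in females and 0.25 in males, with 6 above 0 in each, and that scale moved the median of all genes in females to 0.25.

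The interaction called 0 of 10 (background 0.0%, 0 genes), and DESeq2 0 of 10. *Tsc22d3*, *Zbtb16* and *Klf9* had an unadjusted p under 0.05, as had 8.46% of all genes. The other values were -0.76 (SE 0.39) for *Per1*, -0.69 (SE 0.39) for *Errfi1*, -0.53 (SE 0.36) for *Nr3c1*, -0.49 (SE 0.24) for *Ddit4*, -0.25 (SE 0.33) for *Sgk1*, -0.20 (SE 0.23) for *Fkbp5* and 0.12 (SE 0.30) for *Pdk4*. Of the 10 values 9 were below 0, with a median of -0.61 against -0.43 for the genes of at least 50 CPM and 0.12 for all genes. With lungs matched on lung genes, the median was -0.15, against -0.000672 for genes of at least 50 CPM and 0.22 for all genes. On that scale 0 of the 10 had an unadjusted p under 0.05, as had 4.64% of all genes. Under RUVr *Nr3c1* passed the adjusted p alone at 1, 2 and 3 factors in each comparison but that in males. In females edgeR's quasi-likelihood test without RUVr gave it a log2 fold change of -0.47 (SE 0.26, unadjusted p = 0.0772, adjusted p = 0.420). Under RUVr the female value was -0.46 at 1, 2 and 3 factors, with adjusted p of 3.89e-06, 5.42e-06 and 2.97e-08. It stayed under the fold of 1.5. Its adjusted p over all alternatives in females ran from 2.97e-08 to 0.998, and the value was 0.04 once the log2 share entered the model.

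**Figure D3:**
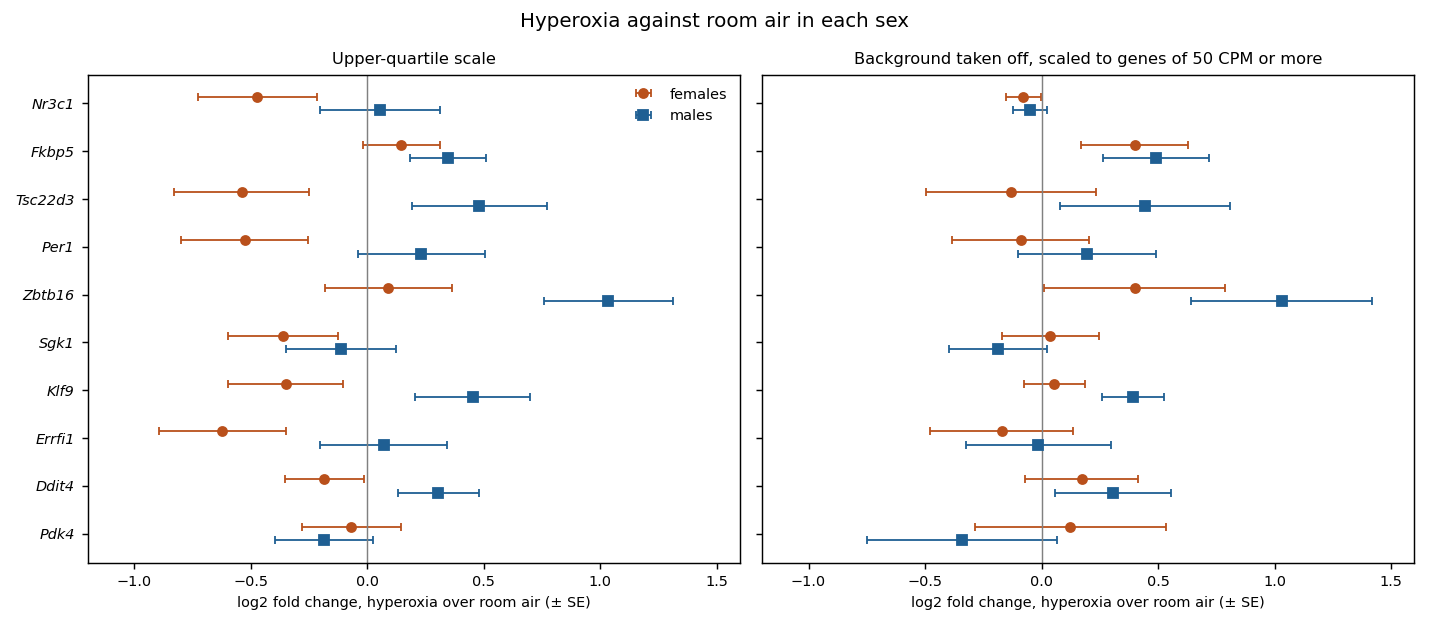
Log2 fold change of hyperoxia over room air (horizontal axis, ± SE) for each gene in females (circles) and males (squares), on the CPM scale at left and the lung-gene scale at right. Female values such as -0.62 for Errfi1 and -0.47 for Nr3c1 at left move to -0.17 and -0.08 at right, while Zbtb16 in males is 1.03 on both.

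Females and males were compared with the exposures averaged. Of the 10 genes 0 were called (background 1.22%, 559 genes), and DESeq2 called 0 of the 10 and 791 of all genes. *Errfi1* was 1.53-fold higher in females as a fitted value (log2 0.61, SE 0.19, unadjusted p = 0.00370, adjusted p = 0.162). *Per1* (0.50, SE 0.19, unadjusted p = 0.0148), *Sgk1* (0.41, SE 0.17, unadjusted p = 0.0209) and *Ddit4* (0.27, SE 0.12, unadjusted p = 0.0332) also had an unadjusted p under 0.05, as had 6.88% of all genes. No gene of the set had its 6 female lungs clear of its 6 male lungs, as 0.886% of all genes had with females higher and 0.312% with females lower. On the lung-gene scale *Errfi1* was at 0.55 (SE 0.22, adjusted p = 0.691), *Per1* at 0.42 (SE 0.21) and *Sgk1* at 0.34 (SE 0.15), so these values changed little with the scale. *Fkbp5* (-0.19, SE 0.12) and *Zbtb16* (-0.28, SE 0.19) were lower in females as fitted values, and the sexes overlapped. The remaining values were 0.39 (SE 0.20) for *Tsc22d3*, 0.22 (SE 0.18) for *Nr3c1*, 0.12 (SE 0.17) for *Klf9* and -0.19 (SE 0.15) for *Pdk4*. With a lung left out *Tsc22d3* ran from 0.24 to 0.53, *Nr3c1* from 0.11 to 0.36 and *Klf9* from 0.021 to 0.21. *Zbtb16* ran from -0.43 to -0.13 and *Fkbp5* from -0.26 to -0.11.

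On the CPM scale *Zbtb16* had the highest correlation with *Fkbp5* of the other 9 genes, though not past the adjustment. Over the 12 lungs the Pearson correlation of their log2 CPM was 0.74 and Spearman's rho 0.71 (permutation p = 0.00499 and 0.0116, adjusted p = 0.850 and 0.724 over 41163 genes), and 0.265% of those genes were as close to *Fkbp5*. Without room air female 2 and hyperoxia male 3, the lungs farthest from the median of *Fkbp5*, r was 0.58, with 5.02% of genes as close. With each group's mean taken off it was 0.56, with 5.25% of genes as close, level with *Tsc22d3* at 0.56, and rho was 0.53 against 0.69 for *Tsc22d3* and for *Per1*. It was 0.82 with background taken off and 0.80 on the lung-gene scale. The other 8 genes lay between -0.40 (*Nr3c1*) and 0.34 (*Pdk4*), and 0 of the 9 passed the adjustment. Scaled to lung genes, *Klf9* reached 0.64, *Pdk4* 0.55 and *Ddit4* 0.53, and *Nr3c1* -0.80, with adjusted permutation p of 0.149 or more. On that scale 12.3%, 23.6% and 25.5% of all genes were as close to *Fkbp5* as the first 3 of these, and 0.957% as close as *Zbtb16*. By rho *Klf9* (0.83) and *Ddit4* (0.75) stood above *Zbtb16* (0.73) there.

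The 5 genes most like *Fkbp5* were *Gm43999* (r = 0.88), *Tmem54* (0.88), *Hif3a* (0.87), *Chst5* (0.86) and *P2rx2* (0.86), none of which passed the adjustment, with adjusted permutation p between 0.617 and 0.850. *Hif3a*, a hypoxia-inducible factor subunit that glucocorticoids raise in several tissues, was the best counted of them, with a mean of 45.5 CPM against 5.17 to 7.34 CPM in the other 4. It was 31.96, 41.2 and 50.03 CPM in room air males, 56.5, 54.6 and 65.6 CPM in hyperoxia males, 32.8, 35.1 and 51.0 CPM in room air females and 41.0, 38.0 and 47.6 CPM in hyperoxia females. Its rho with *Fkbp5* was 0.94, and with background taken off r was 0.90. In males its log2 fold change was 0.52 (SE 0.19, adjusted p = 1.00).

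**Figure D4:**
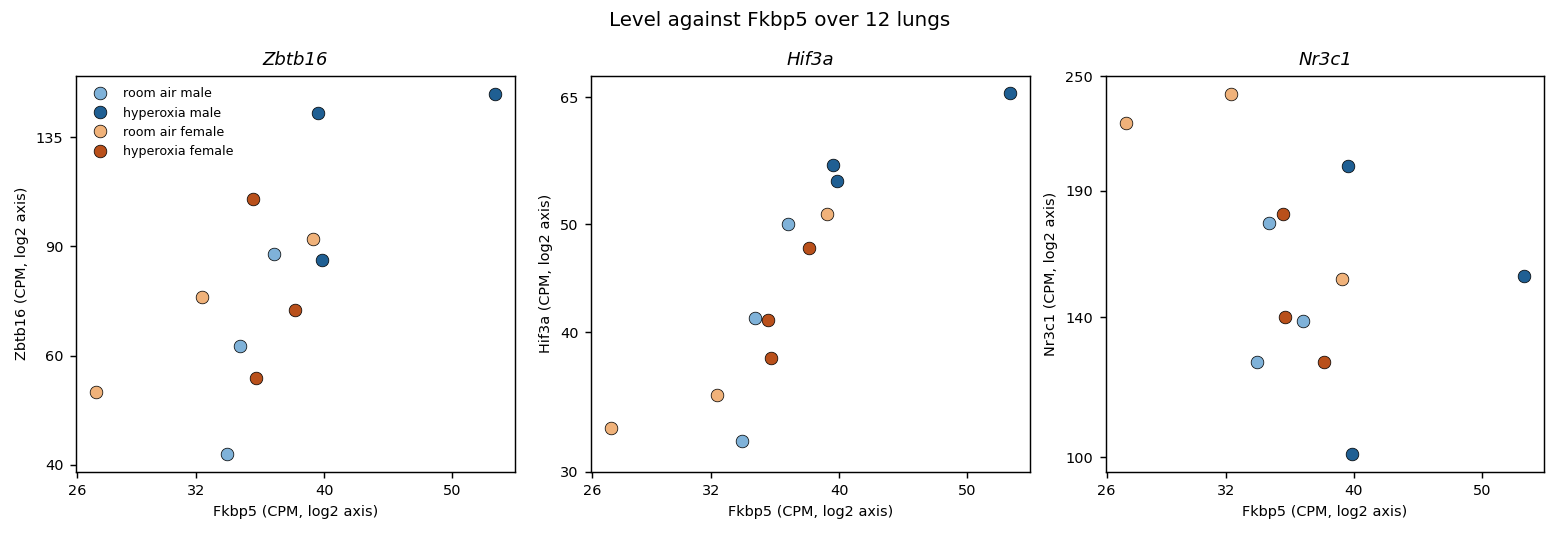
Level of Zbtb16, Hif3a and Nr3c1 (vertical axes) against that of Fkbp5 (horizontal axis), in CPM on log2 axes; each point is a lung, coloured by group. Zbtb16 (r = 0.74) and Hif3a (r = 0.87) climb with Fkbp5, and Nr3c1 (r = -0.40) does not.

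Further genes of the pathway were taken from lists. Of 20 other glucocorticoid-induced genes 0 were called in each of the 5 comparisons. With the sexes averaged 11 lay above and 9 below 0, with a median log2 fold change of 0.028 beside 0.031 for all genes, and of 0.17 beside 0.13 on the lung-gene scale. *Angptl4*, a secreted inhibitor of lipoprotein lipase, was at 0.38 (SE 0.13, unadjusted p = 0.00699, adjusted p = 0.896), and at 0.56 (SE 0.14, adjusted p = 0.322) on the lung-gene scale. *Cebpb*, a leucine zipper transcription factor, was at -0.46 (SE 0.14, unadjusted p = 0.00225, adjusted p = 0.701). By sex the medians were 0.19 in males, with 15 above 0, and -0.26 in females, with 5 above 0, and the latter was 0.11 on the lung-gene scale with 13 above 0.

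The receptor's partners and the enzymes of steroid metabolism made a list of 12, of which 0 were called in any comparison. *Hsp90aa1* and *Hsp90ab1*, the 2 cytoplasmic HSP90 genes that hold the receptor ready, stood at -0.51 (SE 0.15, unadjusted p = 0.00180, adjusted p = 0.675) and -0.49 (SE 0.19, adjusted p = 0.927) with the sexes averaged. With lungs matched on lung genes, they were at -0.39 (SE 0.10, adjusted p = 0.322) and -0.34 (SE 0.06, adjusted p = 0.0771). In females all 12 lay below 0, with a median of -0.38, close to the -0.35 of genes of at least 50 CPM, and on the lung-gene scale 7 did, with a median of -0.03. Of 12 clock genes 0 were called. *Nr1d1* (-0.27, SE 0.18) and *Cry1* (0.11, SE 0.10), both clock repressors, had the smallest unadjusted p of that list with the sexes averaged, 0.136 and 0.289. The median of the 12 was 0.017 with 7 above 0, and 0.16 with 10 above 0 on the lung-gene scale. On that scale 4 had an unadjusted p under 0.05, and 5 in males, with 0 called, against 6.56% and 4.14% of all genes. In females 11 lay below 0 on the CPM scale, with a median of -0.23, and 9 above 0 on the lung-gene scale, with a median of 0.11.

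The 8 immediate early genes, which answer handling and stress within minutes, gave 1 call, in the comparison of the sexes, where 1.22% of all genes were called. *Atf3*, a stress-induced transcription factor, was higher in females than in males (log2 fold change 0.80, SE 0.17, adjusted p = 0.00866), though not called on the lung-gene scale (log2 fold change 1.07, SE 0.31, adjusted p = 0.173), and 7 of the 8 lay above 0 with a median of 0.45. In hyperoxia females 8 of 8 were below room air females as fitted values, with a median of -0.62 beside -0.35 for genes of at least 50 CPM, and none was called. Of the 8, 6 had an unadjusted p under 0.05, as had 12.6% of all genes. The median was -0.28 on the lung-gene scale, with 1 above 0, and 2 had such a p there against 7.75% of all genes. Between the sexes 6 of the 8 had such a p on each scale, against 6.88% and 6.32% of all genes. The summed level of the list ran from 179 CPM in room air male 1 to 536 CPM in room air female 5. The latter lung was also the highest in the summed markers of alveolar type 2, alveolar type 1, club and ciliated, endothelial, fibroblast, smooth muscle, macrophage and T and B cells.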

How the data were processed

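RNA of 12 whole lungs was sequenced, and the deposited table holds raw counts per gene that the authors made with Trim Galore, STAR on mm10 and featureCounts (versions and strand setting not given in the sources used here). The labels name NEBNext Ultra II Directional and the study's methods a QIAseq kit. The study then applied ComBat-seq, RUVr and edgeR. The counts as deposited were fitted here with edgeR 4.0.16 in R 4.3.3 (quasi-likelihood test, robust, upper-quartile scaling, filterByExpr), over 4 groups of 3 lungs and 45828 genes, with Benjamini-Hochberg adjustment over all of them. A gene was called at an adjusted p under 0.05 and a fold over 1.5. Libraries held 8763033 to 16741694 counts, so 3 counts were worth 0.179 to 0.342 CPM, and such limits cover counting error only. Litters are not given per lung, so p-values measure only the spread between these lungs. Gene positions are those of GENCODE mouse release 21 on mm10, matched for 55141 IDs, and sequences are from RefSeq. Correlations used log2 CPM with a prior count of 2 and 100000 permutations, two-sided. DESeq2 1.42.0, TMM, RUVr, other filters, removal of background and each lung left out in turn were the alternatives.

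The members and gene lists were chosen with earlier results of these data known. All 10 genes were fitted in each comparison, though not every value is printed. Also named were list genes that were called, or otherwise the 2 with the smallest p with the sexes averaged. The 5 genes most like *Fkbp5* with a mean of at least 1 CPM were named too. Other named genes (*Sftpc*, *Pecam1*, *Acta1*, *Mir30a* and its relatives) served as checks and were chosen after their values were seen.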

Additional observations from a re-analysis of the deposited data

How the results depend on the processing

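Calls among the 10 genes stayed at 0 in each comparison under each alternative run, except that *Klf9* alone was called in the interaction under RUVr with 2 factors and with 3 factors, 1 gene each. With a lung left out 574 values kept their direction and their side of the threshold and 26 reversed. Under other settings 540 did so, 33 reversed and 2 passed the threshold, both of *Klf9* in that interaction. The causes were not tested. Depth was lowest for *Ddit4*, with 107 counts in its lowest lung.

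Log2 fold changes that reversed are given by comparison. With the sexes averaged *Tsc22d3* was 0.026 under RUVr with 2 factors, 0.00286 with at least 10 counts in every library, 0.075 with background taken off, 0.16 on the lung-gene scale (an alternative added after the data were seen) and 0.094 with the log2 receptor share in the model, and *Per1* was 0.053 on the lung-gene scale. In females the lung-gene scale gave *Sgk1* 0.037, *Klf9* 0.054, *Ddit4* 0.17 and *Pdk4* 0.12, and the share gave *Nr3c1* 0.035 and *Klf9* 0.012. In males *Nr3c1* was -0.023 with background taken off, -0.050 on the lung-gene scale and -0.093 with the share, and *Errfi1* -0.014 on the lung-gene scale and -0.00743 with the share. In the interaction *Sgk1* was 0.029 with background taken off, 0.22 on the lung-gene scale and 0.085 with the share, which gave *Nr3c1* 0.13 and *Pdk4* -0.29. Between the sexes the share gave *Klf9* -0.000765.

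With 1 lung left out, the values that reversed ranged as follows. With the sexes averaged *Tsc22d3* ran from -0.18 to 0.10, *Klf9* from -0.046 to 0.15, *Ddit4* from -0.033 to 0.14 and *Pdk4* from -0.22 to 0.075. In females *Zbtb16* ran from -0.22 to 0.29 and *Pdk4* from -0.21 to 0.11. In males *Nr3c1* ran from -0.19 to 0.29, *Per1* from -0.00399 to 0.42, *Sgk1* from -0.29 to 0.074, *Errfi1* from -0.12 to 0.31 and *Pdk4* from -0.37 to 0.22. *Pdk4* ran from -0.29 to 0.30 in the interaction and from -0.28 to 0.012 between the sexes.

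The correlation with *Fkbp5* reversed for *Per1* (0.42 with group means taken off, 0.0914 with TMM, 0.0975 with background taken off, 0.18 on the lung-gene scale), *Sgk1* (0.43 with group means taken off, 0.11 on the lung-gene scale) and *Errfi1* (0.37 with group means taken off). Without the 2 lungs farthest from the median it reversed for *Ddit4* (-0.0465) and *Pdk4* (-0.17).

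Whether animal numbers shared by groups pair the lungs is not known. Deviations of same-numbered lungs correlated at 0.0792 and -0.20 in the female pairs and at -0.35 in the male pair. These correlations were not set against those of other lung pairs, so they cannot exclude a shared litter. With the number as a replicate block in the females 0 of the 10 genes were called, and 451 of 43161 genes were called against 80 of 43161 in the same 6 libraries without the block and 1 of 45828 with all 12 libraries. *Pdk4* reversed to 0.13 under the block. Numbers 4 and 6 stand in 1 female lung each, so the block leaves little spread to test against.

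Counts of calls over all genes moved most under RUVr. With 1, 2 and 3 factors they were 91, 102 and 125 with the sexes averaged (19 without RUVr), 1907, 1913 and 2053 in females (1), 14, 50 and 75 in males (0) and 2112, 2167 and 2398 in the interaction (0). DESeq2 called 40, 44, 0 and 0, and 791 between the sexes (559 by edgeR). Leaving out a lung moved the edgeR counts too. With the sexes averaged they ran from 3 without hyperoxia female 5 to 37 without hyperoxia male 1. In females they ran from 0, as without room air female 2, to 206 without room air female 6. Scaling to lung genes moved the median log2 fold change of all genes from 0.11 to 0.25 in females.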
